A study of Homo sapiens with 9 samples.

Results

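The proteasome genes are described here as every gene of the deposited table whose symbol is PSMA, PSMB, PSMC, PSMD, PSME, PSMF or PSMG followed by a number, which gave 48 of the 20379 genes listed. They were read in HCCLM3 cells, an established line of human hepatocellular carcinoma, transfected with siRNA against UXS1, siRNA against MRPL42 or a non-targeting siRNA as control. UXS1 makes UDP-xylose, the sugar donor that starts glycosaminoglycan chains, and MRPL42 is a protein of the mitochondrial large ribosomal subunit. Polyadenylated RNA was sequenced in 3 libraries per group, which the table tells apart by the letters a, b and c. All groups share the cell line and a transfection with siRNA. Cells without siRNA were not analysed here. The labels do not state that libraries of 1 group are separate cultures, and p-values then cover only the spread among these libraries, part or all of it possibly technical. In such bulk libraries a change in the mix of cells and a change in the RNA of each cell cannot be told apart.

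The proteasome degrades proteins marked with ubiquitin. Its 20S core is a barrel of stacked rings, with alpha subunits in the outer rings that gate the entrance and beta subunits in the inner rings that carry the cutting sites. The 19S particle caps the barrel. Its base holds a ring of ATPases that unfold the substrate and feed it into the core, and its lid removes ubiquitin. Dedicated chaperones put the parts together. In cells exposed to interferon, the catalytic beta subunits PSMB6, PSMB7 and PSMB5 are replaced by PSMB9, PSMB10 and PSMB8 to make the immunoproteasome, which favours peptides for presentation on MHC class I. When proteasome activity falls short, the transcription factor NFE2L1 raises the transcription of most subunits through antioxidant response elements.

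The library totals lay between 15265959 and 22400560 estimated counts. Neither target passed the test in its own group. UXS1 averaged 141 ± 3.44 CPM in the UXS1 siRNA libraries and 158 ± 18.8 CPM in the control libraries (SD, n = 3 each; adjusted p = 0.348, edgeR), and MRPL42 averaged 93.1 ± 11.3 CPM in the MRPL42 siRNA libraries and 122 ± 23.4 CPM in the control libraries (adjusted p = 0.185, edgeR), so the groups are called by their siRNA. CPM here are counts scaled to library totals with TMM factors. Control library c stood apart. Relative to each gene's mean over the 9 libraries, its hepatocyte markers averaged -1.34 on the log2 scale, against 0.21 and 0.22 in the other control libraries. Its histone genes averaged 0.93, against -0.34 and -0.42. Whether these reads came from RNA without poly(A) tails cannot be told from the counts. MRPL42 siRNA library b also lay away from its own group. Its chi-squared per gene, larger for less similar libraries, was 24.9 with library a and 13.3 with library c of that group. With control libraries a, b and c it was 6.49, 6.04 and 53.6. With UXS1 siRNA libraries a, b and c it was 10.3, 13.4 and 5.23. The others of its group were nearest to UXS1 siRNA library b, at 6.04 (a) and 3.44 (c). Of 14 hepatocyte markers 11 were tested, and the summed level per length of the list lay between 245 and 267 TPM (counts per base of transcript, scaled to the same sum in every library) with UXS1 siRNA and between 218 and 230 TPM with MRPL42 siRNA, against 172 to 278 TPM with control siRNA. AFP, a defining marker, averaged 2.35 CPM with UXS1 siRNA and 2.45 CPM with MRPL42 siRNA, against 1.80 CPM with control siRNA. APOH, a secreted liver protein, averaged 44.6 CPM with UXS1 siRNA and 41.3 CPM with MRPL42 siRNA, against 51.6 CPM with control siRNA, with all libraries of both below the controls and no call (adjusted p = 0.227 and 0.135, edgeR). Without control library c the medians of this list were -0.003 with UXS1 siRNA and -0.10 with MRPL42 siRNA, against 0.39 and 0.15 with it. The 15 markers of blood, stromal, endothelial and keratinising cells, of which 5 were tested, summed to between 67.3 and 76.3 TPM with UXS1 siRNA and between 59.0 and 73.0 TPM with MRPL42 siRNA, against 68.2, 69.7 and 242 TPM in control libraries a, b and c. The relative level of the tested markers averaged -0.007 in control library c, with 2 of 5 above their own mean. LUM, 1 of the 5, averaged 116 ± 139 CPM with control siRNA, against 40.8 ± 3.15 CPM with UXS1 siRNA. Whether other cells were present was not tested, nor was any part of theirs in the proteasome values. The values without control library c are given with the calls at the end.

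Of the 48 genes, 46 had enough counts to be tested. PSMA8, an alpha subunit of testis, and PSMB11, a beta subunit of the thymus, had no count in any library. A floor of 3 counts corresponds to between 0.134 and 0.197 CPM per library. The genes were grouped by role into 8 alpha subunits, 7 constitutive beta subunits, 4 tissue-specific beta subunits, 9 subunits of the base, 8 of the lid, 7 assembly chaperones and 5 activators or inhibitors. In the annotation 12 of them have pseudogenes, 32 in all, of which PSMC1 has 13, and 20 overlap another protein-coding gene. No source used here states whether strand was kept, and reads in such overlaps may belong to either gene.

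Levels were compared between genes only per length, as TPM, for which a gene's length was that of its principal transcript in GENCODE 29. PSMB4, a structural subunit of the beta ring, was highest with 898 ± 97.9 TPM on average (SD over 9 libraries). PSMD4, the ubiquitin receptor of the base, followed with 615 ± 28.9 TPM. PSMB3 of the beta ring had 428 ± 111 TPM, PSMA7 of the alpha ring 384 ± 25.04 TPM and PSMD8 of the lid 303 ± 27.9 TPM. At the low end stood the base chaperone PSMD5 with 52.3 ± 6.79 TPM, PSMB8 with 46.2 ± 5.72 TPM, the activator PSME4 with 43.7 ± 4.92 TPM, PSMB10 with 37.5 ± 7.38 TPM and PSMB9 with 26.2 ± 5.89 TPM. In the order of all 46 genes the ranges over libraries overlapped for 44 pairs of neighbours, and only PSMB4 and PSMD4 did not overlap. With the longest coding transcript in place of the principal one, a choice added after seeing the data, 2 genes moved by more than 1.5 times: the nuclear activator PSME3 had 193 TPM in place of 573 TPM, and the core chaperone PSMG4 had 9.37 TPM in place of 45.3 TPM.

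Subunits that the assembled particle holds in equal copy number had unequal levels in TPM, which divide counts by transcript length. The alpha subunits spanned 63.0 TPM (PSMA5, 3729 bases) to 384 TPM (PSMA7, 996 bases), a 6.10-fold range. The constitutive beta subunits spanned 114 TPM (PSMB2, 2701 bases) to 898 TPM (PSMB4, 964 bases), a 7.87-fold range. Between these ends lay PSMB5 with 188 TPM, PSMB6 with 238 TPM, PSMB7 with 262 TPM, PSMB1 with 278 TPM and PSMB3. In the base the ATPases lay between 52.6 TPM (PSMC1, the member with the most pseudogenes) and 225 TPM (PSMC3), the scaffolds PSMD1 and PSMD2 had 108 TPM and 231 TPM, and PSMD4 was highest. In the lid PSMD12 was lowest with 53.2 TPM, the deubiquitinase PSMD14 had 101 TPM and PSMD8 was highest. In both rings, the base and the lid, the gene with the lowest TPM was the one with the longest transcript. TPM divide by that same length, so this order is partly built in. The part of length in these ranges was not tested.

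**Figure D1:**
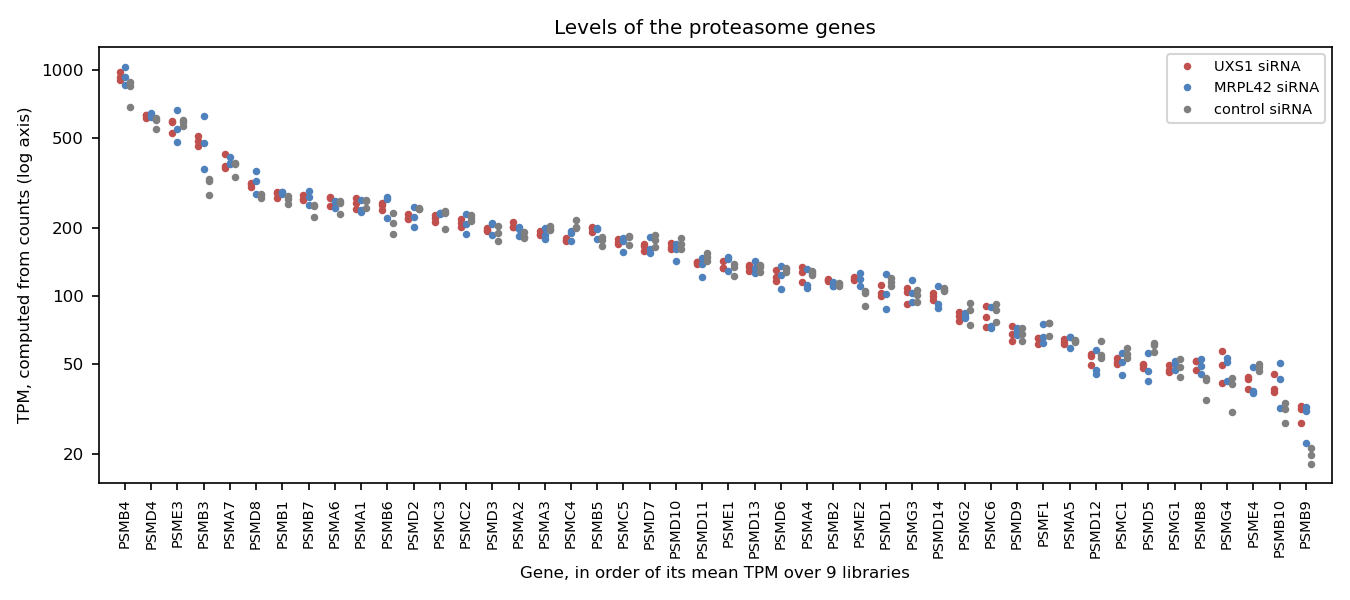
TPM on a log axis for the 46 proteasome genes with counts, in order of their mean over 9 libraries. Each point is 1 library, with UXS1 siRNA left, MRPL42 siRNA in the middle and control siRNA right within each gene. PSMB4 stands highest at 898 TPM on average and PSMB9 lowest at 26.2 TPM, with its 3 control libraries under the libraries of both other groups.

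For each targeting siRNA against control siRNA, the sizes differed by class while no single gene passed the test. At an adjusted p below 0.05 (edgeR's quasi-likelihood test, Benjamini-Hochberg over 12657 genes), 0 of 46 proteasome genes were called with UXS1 siRNA, where 0.0158% of all genes tested were called, 0 of 46 with MRPL42 siRNA, where 0.0% were called, and 0 of 46 between UXS1 siRNA and MRPL42 siRNA, where 0.0% were called. At an unadjusted p below 0.05, 16 of 46 were higher with UXS1 siRNA than with control siRNA, beside 10.4% of all genes tested, and 1 was lower, beside 7.37%. With MRPL42 siRNA 19 of 46 were higher, beside 11.4%, and 1 was lower, beside 8.83%. The lower gene was PSMD5 in both. Log2 fold changes were above 0 for 37 of 46 genes with UXS1 siRNA, beside 49.0% of all genes tested, and for 36 of 46 with MRPL42 siRNA, beside 47.9%. In UXS1 siRNA 22 genes had all 3 libraries above all 3 control libraries, beside 15.3% of all genes, and PSMC4, PSMD5 and PSME4 had all libraries below, beside 10.9%. In MRPL42 siRNA 15 had all libraries above, beside 11.0%, and none below, beside 10.5%. Both comparisons share the control libraries, so their counts are not independent of each other.

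Log2 fold changes (targeting siRNA over control siRNA) were largest in the beta subunits. The 7 constitutive beta subunits had a median of 0.27 with UXS1 siRNA and 0.30 with MRPL42 siRNA, all 7 above 0 in both. The 3 immunoproteasome subunits had medians of 0.49 and 0.57 in the same order of groups. The alpha subunits had medians of 0.09 and 0.12, the base 0.02 and -0.007, the lid 0.007 and 0.03, the chaperones 0.08 and 0.16, and the activators and inhibitor 0.05 and 0.05. Over all 46 genes the medians were 0.09 and 0.13, beside -0.005 and -0.01 over all genes tested. The 77 cytosolic ribosomal protein genes had medians of 0.60 and 0.64, and 0 of 77 were called in either comparison. Those medians lay above every proteasome class here, but at 0.51 and 0.58 without control library c they lay below the immunoproteasome subunits, which then had 0.57 and 0.63, and at 0.18 and 0.19 with offsets for transcript length also below their 0.26 and 0.21.

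**Figure D2:**
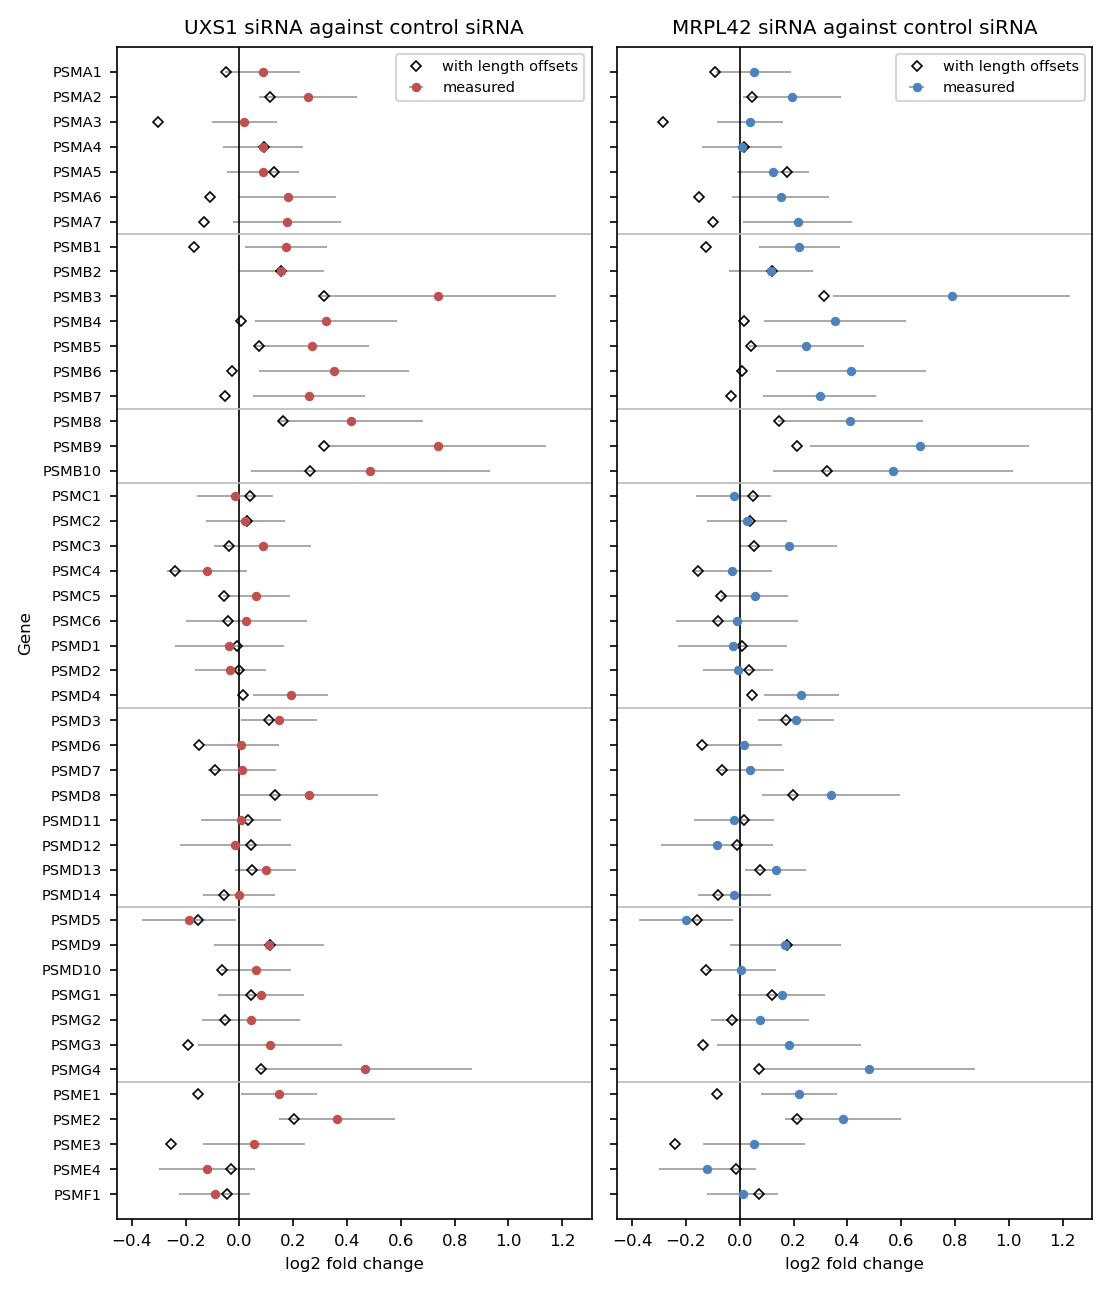
Log2 fold change of each proteasome gene for UXS1 siRNA (left panel) and MRPL42 siRNA (right panel) against control siRNA. Filled points are the measured values with 95% confidence intervals over 3 libraries a group, open diamonds are values after offsets for transcript length, and grey lines part the alpha ring, beta ring, immunoproteasome subunits, base, lid, chaperones and activators from top to bottom. PSMB3 and PSMB9 have the largest values, 0.74 each with UXS1 siRNA, and stand at 0.31 each with the offsets.

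The alpha subunits, which form the outer rings, had values from 0.02 (PSMA3) to 0.26 (PSMA2) with UXS1 siRNA and from 0.009 (PSMA4) to 0.22 (PSMA7) with MRPL42 siRNA, all 7 above 0 in both. PSMA2 had 138.5, 142 and 143 CPM in the UXS1 siRNA libraries a, b and c and 148, 119 and 139.6 CPM in the MRPL42 siRNA libraries, against 114, 121 and 120.4 CPM in the control libraries. Its UXS1 siRNA libraries lay above all controls, while MRPL42 siRNA library b lay among them. PSMA7 had 172, 199.6 and 166 CPM in the UXS1 siRNA libraries and 188.5, 168 and 196 CPM in the MRPL42 siRNA libraries, against 162, 164 and 149 CPM in the control libraries, with no overlap. Its log2 fold changes were 0.18 (adjusted p = 0.336, edgeR) and 0.22 (adjusted p = 0.227, edgeR). PSMA3 had 82.7, 85.9 and 84.8 CPM in the UXS1 siRNA libraries and 86.1, 84.6 and 86.4 CPM in the MRPL42 siRNA libraries, against 80.6, 84.3 and 85.4 CPM in the control libraries. PSMA4 had 162, 150.5 and 166.5 CPM in the UXS1 siRNA libraries and 153, 158 and 143 CPM in the MRPL42 siRNA libraries, against 144, 151 and 155.5 CPM in the control libraries. The groups overlapped in both genes.

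PSMB3, a structural subunit of the beta ring, had the largest value in the constitutive core. It had 181, 177 and 161 CPM in the UXS1 siRNA libraries and 240, 123 and 175 CPM in the MRPL42 siRNA libraries, against 108, 106 and 96.7 CPM in the control libraries. All 6 libraries with a targeting siRNA lay above all 3 control libraries, with MRPL42 siRNA library b nearest to them. The log2 fold change was 0.74 ± 0.20 (SE) with UXS1 siRNA, with an adjusted p of 0.174, and 0.79 ± 0.20 with MRPL42 siRNA, with an adjusted p of 0.135 (edgeR). The exact two-sided permutation test of 3 against 3 libraries gave 0.1, the smallest p that this design allows.

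The other constitutive beta subunits had smaller values. PSMB4 had 436, 426 and 395 CPM in the UXS1 siRNA libraries and 493, 362 and 429 CPM in the MRPL42 siRNA libraries, against 364, 346 and 296 CPM in the control libraries, so only the MRPL42 siRNA group overlapped the controls. Of the catalytic subunits, PSMB6 had 98.6, 104 and 91.9 CPM in the UXS1 siRNA libraries and 116, 82.3 and 109 CPM in the MRPL42 siRNA libraries, against 76.3, 83.8 and 71.1 CPM in the control libraries. PSMB7 had 121, 123 and 124 CPM in the UXS1 siRNA libraries and 142, 108 and 128 CPM in the MRPL42 siRNA libraries, against 106, 104 and 97.8 CPM in the control libraries. PSMB5 had 120.5, 122 and 112 CPM in the UXS1 siRNA libraries and 127, 100.2 and 122 CPM in the MRPL42 siRNA libraries, against 91.4 to 103 CPM in the control libraries. With UXS1 siRNA no library of these 3 genes overlapped the controls, and with MRPL42 siRNA library b did so for PSMB6 and PSMB5. They gave log2 fold changes of 0.35 (PSMB6), 0.26 (PSMB7) and 0.27 (PSMB5) with UXS1 siRNA and 0.41, 0.30 and 0.25 with MRPL42 siRNA, in the same order of genes. Their adjusted p-values lay between 0.145 and 0.216 (edgeR). The smallest value of the ring was that of PSMB2, 0.16 with UXS1 siRNA and 0.12 with MRPL42 siRNA. PSMB2 had 148, 149 and 143 CPM in the UXS1 siRNA libraries and 154, 131 and 143 CPM in the MRPL42 siRNA libraries, against 127, 130.1 and 136.5 CPM in the control libraries.

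The 3 immunoproteasome subunits were low in level, and their fold changes were among the largest of the 46 genes. PSMB9 had 11.7, 11.7 and 9.65 CPM in the UXS1 siRNA libraries and 12.4, 7.57 and 11.6 CPM in the MRPL42 siRNA libraries, against 7.02, 6.52 and 6.31 CPM in the control libraries, with no overlap. Its log2 fold change was 0.74 ± 0.18 (SE; adjusted p = 0.171, edgeR) with UXS1 siRNA and 0.67 ± 0.18 (adjusted p = 0.137, edgeR) with MRPL42 siRNA. PSMB10 had 21.6, 25.8 and 20.5 CPM in the UXS1 siRNA libraries and 30.4, 16.9 and 24.8 CPM in the MRPL42 siRNA libraries, against 14.1, 16.3 and 18.2 CPM in the control libraries. MRPL42 siRNA library b lay inside the range of the controls there. PSMB8 had 26.6, 27.3 and 23.7 CPM in the UXS1 siRNA libraries and 29.3, 22.0 and 26.2 CPM in the MRPL42 siRNA libraries, against 20.3, 20.7 and 17.3 CPM in the control libraries, with all UXS1 siRNA and MRPL42 siRNA libraries above.

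PSMB9 overlaps PSMB8 and TAP1 on the opposite strand in the annotation, at chr6:32844136-32859585 of GRCh38. The RefSeq start used for its promoter below follows position 32854191, past the end of PSMB8 at 32844703. TAP1, a peptide transporter of the MHC class I pathway, averaged 33.3 ± 2.62 CPM with UXS1 siRNA and 35.1 ± 0.93 CPM with MRPL42 siRNA, against 31.9 ± 2.09 CPM with control siRNA (SD, n = 3 each), with log2 fold changes of 0.06 and 0.14. Among 13 tested genes of antigen processing, which also include HLA genes, 9 had values above 0 with UXS1 siRNA and 10 with MRPL42 siRNA, the medians were 0.05 and 0.14, and none was called. CALR and TAPBP, chaperones of the peptide-loading complex, had the smallest p in that list, with 0.27 and 0.17 in UXS1 siRNA and 0.31 and 0.22 in MRPL42 siRNA.

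Within a library, each immunoproteasome subunit was set against the constitutive subunit whose place it takes. In TPM, PSMB9 was 12.9%, 12.2% and 11.4% of PSMB6 in the UXS1 siRNA libraries and 11.6%, 10.02% and 11.5% in the MRPL42 siRNA libraries, against 10.03%, 8.48% and 9.67% in the control libraries. MRPL42 siRNA library b was level with the highest control library, and the other MRPL42 siRNA and all UXS1 siRNA libraries lay above it. PSMB10 was 14.9% ± 1.86 of PSMB7 with UXS1 siRNA and 15.1% ± 2.35 with MRPL42 siRNA, against 12.8% ± 2.11 with control siRNA (SD, n = 3 each). PSMB8 was 25.2% ± 0.69 of PSMB5 with UXS1 siRNA and 25.5% ± 0.84 with MRPL42 siRNA, against 22.9% ± 3.32 with control siRNA. The ranges of both these pairs overlapped between the groups.

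In the 19S particle the class medians stood near 0, while some single genes stood higher. The base had log2 fold changes from -0.12 (PSMC4) to 0.19 (PSMD4) with UXS1 siRNA and from -0.03 (PSMC4) to 0.23 (PSMD4) with MRPL42 siRNA. PSMC4, an ATPase of the base, had 132, 132 and 128 CPM in the UXS1 siRNA libraries and 137, 135 and 144 CPM in the MRPL42 siRNA libraries, against 136, 135 and 153 CPM in the control libraries, so the UXS1 siRNA libraries lay just below all others. PSMD4 had 395, 390 and 385 CPM in the UXS1 siRNA libraries and 414, 373 and 415 CPM in the MRPL42 siRNA libraries, against 351, 345 and 330 CPM in the control libraries, with no overlap and adjusted p-values of 0.196 and 0.137 (edgeR). In the lid, log2 fold changes ran from -0.02 (PSMD12) to 0.26 (PSMD8) with UXS1 siRNA and from -0.08 (PSMD12) to 0.34 (PSMD8) with MRPL42 siRNA. PSMD8, a structural subunit, had 224, 228 and 212 CPM in the UXS1 siRNA libraries and 274, 189.8 and 238 CPM in the MRPL42 siRNA libraries, against 184, 185 and 186 CPM in the control libraries. Its groups did not overlap, with MRPL42 siRNA library b just above the controls. PSMD3, with 0.15 and 0.21, and PSMD13, with 0.10 and 0.13, also had all libraries of both targeting siRNAs above the controls. These were 3 of 8 lid genes in each comparison, beside 15.3% and 11.0% of all genes. None of the lid genes had all libraries below, beside 10.9% and 10.5%. PSMD12 had 110.1, 103 and 109.8 CPM in the UXS1 siRNA libraries and 98.3, 110.3 and 98.7 CPM in the MRPL42 siRNA libraries, against 99.5, 103 and 124 CPM in the control libraries. PSMD14, which takes ubiquitin off the substrate, had log2 fold changes of -0.001 and -0.02.

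Sums over a class depended on the measure for the alpha ring and the lid. The 7 constitutive beta subunits summed to 2617, 2543 and 2467 TPM in the UXS1 siRNA libraries and 2831, 2277 and 2541 TPM in the MRPL42 siRNA libraries, against 2244, 2210 and 1925 TPM in the control libraries. All libraries of both targeting siRNAs lay above all controls, MRPL42 siRNA library b by little. The 7 alpha subunits summed to 1486, 1482 and 1515 TPM in the UXS1 siRNA libraries and 1432, 1477 and 1471 TPM in the MRPL42 siRNA libraries, against 1454, 1500.4 and 1400.2 TPM in the control libraries, with overlapping ranges. In CPM the alpha sums lay above all controls. They were 972 to 980 with UXS1 siRNA and 920 to 993 with MRPL42 siRNA, against 872 to 902 with control siRNA. The 9 base subunits summed to 1866.5, 1834.5 and 1906 TPM in the UXS1 siRNA libraries and 1776.5, 1990.2 and 1898 TPM in the MRPL42 siRNA libraries, against 1933, 1946 and 1867 TPM in the control libraries, with overlapping ranges. The lid sums overlapped in TPM, at 1191 to 1236 with UXS1 siRNA, 1187 to 1266.5 with MRPL42 siRNA and 1187 to 1236 with control siRNA. In CPM the lid sums lay above all controls. They were 1150 to 1165 with UXS1 siRNA and 1145 to 1195.5 with MRPL42 siRNA, against 1080 to 1116 with control siRNA.

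Among the assembly factors PSMG4, a partner of PSMG3 in building the alpha ring, had the largest value. It had 22.0, 19.6 and 15.5 CPM in the UXS1 siRNA libraries and 22.0, 15.4 and 20.3 CPM in the MRPL42 siRNA libraries, against 15.4, 14.5 and 11.5 CPM in the control libraries. The log2 fold changes were 0.47 (adjusted p = 0.227, edgeR) and 0.48 (adjusted p = 0.190, edgeR). PSMD5, a chaperone that holds base subunits before they join the core, had 78.4, 78.1 and 77.4 CPM in the UXS1 siRNA libraries and 71.2, 84.0 and 76.5 CPM in the MRPL42 siRNA libraries, against 82.5, 88.5 and 95.1 CPM in the control libraries. Its log2 fold changes were -0.19 (adjusted p = 0.261, edgeR) and -0.20 (adjusted p = 0.208, edgeR).

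Of the activators, PSME2, which with PSME1 forms the interferon-inducible cap of the immunoproteasome, had 76.4, 80.3 and 74.7 CPM in the UXS1 siRNA libraries and 88.0, 67.3 and 79.7 CPM in the MRPL42 siRNA libraries, against 61.2, 62.5 and 56.3 CPM in the control libraries, with no overlap. The log2 fold changes were 0.36 ± 0.10 (SE; adjusted p = 0.174, edgeR) and 0.38 ± 0.10 (adjusted p = 0.135, edgeR). PSME1 had 0.15 and 0.22. PSME4, which caps the core in testis and in DNA repair, had 139.7, 129.7 and 139.5 CPM in the UXS1 siRNA libraries and 131, 149.6 and 128 CPM in the MRPL42 siRNA libraries, against 139.8, 146 and 159 CPM in the control libraries, with log2 fold changes of -0.12 and -0.12. PSME3, the nuclear activator, had 0.05 and 0.05, and PSMF1, an inhibitor of the core, had -0.09 and 0.01. PSME2 overlaps RNF31, and PSME1 overlaps EMC9, each on the opposite strand.

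**Figure D3:**
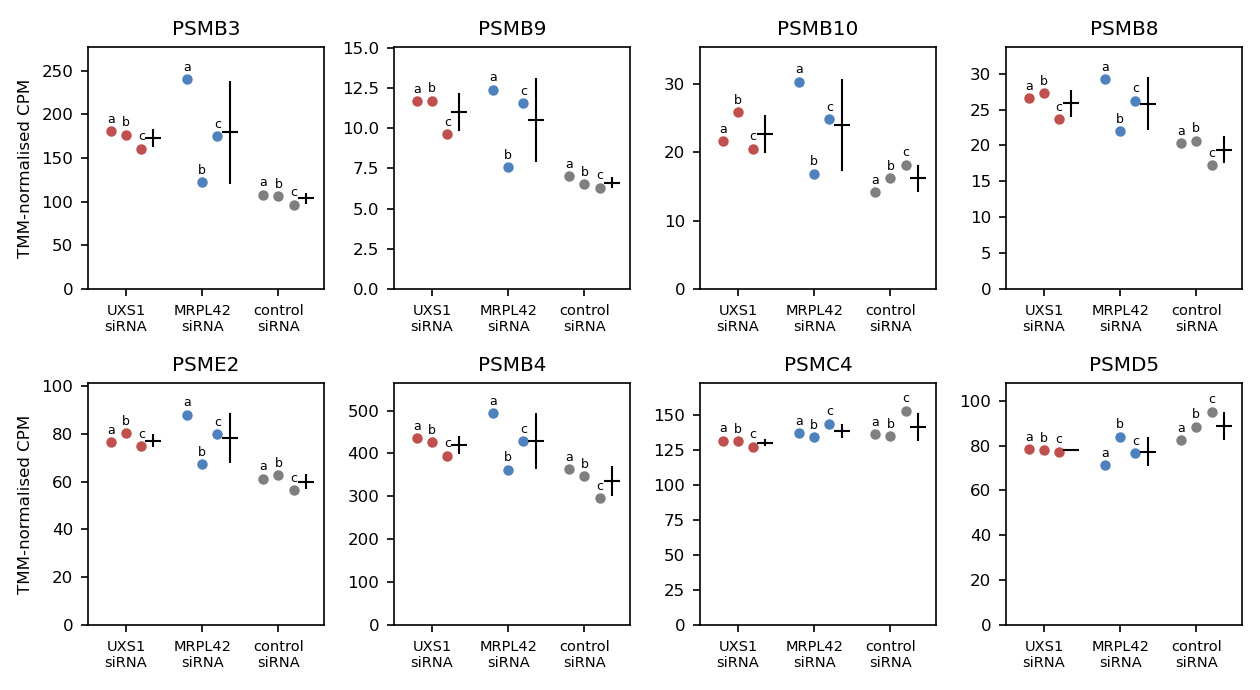
TMM-normalised CPM of 8 proteasome genes in each library (letters a, b and c), with UXS1 siRNA left, MRPL42 siRNA in the middle and control siRNA right, and the mean ± SD as a black mark beside each group. PSMB3 and PSMB9 have all 6 libraries of both targeting siRNAs above the controls, MRPL42 siRNA library b lies nearest to them or within their range in most panels, and PSMC4 and PSMD5 show no such step.

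PSMB3, PSMB9, PSMB10 and PSME2 had large positive values, though not the 4 largest, and were picked after these were seen. For these genes the 250 bases before the transcription start are shown, with the motifs of known regulators of this complex that they hold. They are credited to RefSeq, build GRCh38.p14, which gave a promoter for 42 of the 48 genes, and for each gene the first start listed was taken. Capitals mark TGACNNNGC, the core of the antioxidant response element that NFE2L1 binds, and GAAANNGAA, which interferon regulatory factors bind, on either strand. The stretches are chr17:38752491-38752740 on the plus strand for PSMB3, chr6:32853942-32854191 on the plus strand for PSMB9, chr16:67936851-67937100 on the minus strand for PSMB10 and chr14:24146611-24146860 on the minus strand for PSME2.
PSMB3: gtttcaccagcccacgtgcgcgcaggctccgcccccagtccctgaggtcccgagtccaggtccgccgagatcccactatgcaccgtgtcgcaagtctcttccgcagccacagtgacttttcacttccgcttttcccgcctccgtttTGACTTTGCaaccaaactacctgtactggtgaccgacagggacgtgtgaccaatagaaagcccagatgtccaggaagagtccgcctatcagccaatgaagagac
PSMB9: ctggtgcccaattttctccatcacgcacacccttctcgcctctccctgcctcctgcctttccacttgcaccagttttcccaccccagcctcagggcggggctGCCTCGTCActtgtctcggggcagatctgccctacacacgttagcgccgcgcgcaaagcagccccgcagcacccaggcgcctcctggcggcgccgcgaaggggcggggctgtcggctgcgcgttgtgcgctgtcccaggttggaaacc
PSMB10: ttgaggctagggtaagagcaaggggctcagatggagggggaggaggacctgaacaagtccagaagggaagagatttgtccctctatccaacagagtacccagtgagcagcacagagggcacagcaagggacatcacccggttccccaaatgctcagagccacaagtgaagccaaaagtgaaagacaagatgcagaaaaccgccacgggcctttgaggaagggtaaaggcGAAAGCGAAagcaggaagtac
PSME2: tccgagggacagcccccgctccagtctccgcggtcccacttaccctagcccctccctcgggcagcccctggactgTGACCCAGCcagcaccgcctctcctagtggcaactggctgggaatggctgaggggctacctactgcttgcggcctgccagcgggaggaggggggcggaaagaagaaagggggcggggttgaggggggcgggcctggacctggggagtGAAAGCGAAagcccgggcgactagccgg
In PSMB3 and PSMB9 the capitals mark the antioxidant core, in PSMB10 the interferon motif, and in PSME2 the antioxidant core first and the interferon motif near the start. TGACNNNGC was found in 11 of 42 proteasome promoters (26.2%), beside 11.0% of the 27305 promoters of the same length, and GAAANNGAA in 5 of 42 (11.9%), beside 7.06%. The promoters with the antioxidant core belong to PSMB3, PSMB9, PSMD12, PSMD3, PSMD5, PSMD9, PSME1, PSME2, PSME4, PSMG1 and PSMG2, whose log2 fold changes lie on both sides of 0: PSMD5 and PSME4, which had all UXS1 siRNA libraries below the controls, also hold it. Those with the interferon motif belong to PSMA4, PSMB4, PSMB10, PSME2 and PSMG4. PSMB8, with log2 fold changes of 0.41 and 0.41, and PSMG4, with 0.47 and 0.48, had larger values than PSME2 and are not shown. The PSMB8 promoter holds neither motif. These are 2 of 22 strings searched. Other strings also stood above their share of all promoters, such as ACCGGAAG in 14.3% of proteasome promoters, beside 1.89%, and CCGGAAG in 23.8%, beside 8.82%. Some stood below it, such as TGAGTCA in 2.38%, beside 4.16%, and TTCTTT in 16.7%, beside 19.9%. The motif matches are a description of the letters.

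NFE2L1 averaged 234 ± 4.48 CPM with UXS1 siRNA and 243 ± 15.0 CPM with MRPL42 siRNA, against 266 ± 26.1 CPM with control siRNA (SD, n = 3 each), with log2 fold changes of -0.19 (adjusted p = 0.274, edgeR) and -0.13 (adjusted p = 0.386, edgeR). Of 13 genes around it, among them the protease DDI2 and the ATPase VCP that activate it and its small MAF partners, 1 had a value above 0 with UXS1 siRNA and 3 with MRPL42 siRNA. The medians were -0.11 and -0.11, and none was called. These genes had a median transcript length of 3392 bases, and with offsets for length the medians were -0.08 and -0.05. MAFF had the lowest value with UXS1 siRNA, -0.40 (adjusted p = 0.185, edgeR), and MAFK followed with -0.38 (adjusted p = 0.191, edgeR). NFE2L2 had -0.20 with MRPL42 siRNA (adjusted p = 0.200, edgeR).

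Subunits and partners that carry other symbols had values on both sides of 0, from -0.32 to 0.37 with UXS1 siRNA and from -0.23 to 0.46 with MRPL42 siRNA. SEM1, a small subunit of the lid, averaged 93.6 ± 7.18 CPM with UXS1 siRNA and 99.0 ± 7.20 CPM with MRPL42 siRNA, against 74.1 ± 1.27 CPM with control siRNA (SD, n = 3 each), with log2 fold changes of 0.34 (adjusted p = 0.171, edgeR) and 0.42 (adjusted p = 0.132, edgeR). ADRM1, a ubiquitin receptor of the base, had 0.37 and 0.46, and POMP, the maturation factor of the core, had 0.30 and 0.18. In the list of 17 such genes, which also holds ubiquitin shuttles and proteasome-bound enzymes, 8 were above 0 with UXS1 siRNA and 7 with MRPL42 siRNA, the medians were -0.004 and -0.05 and none was called. Without control library c these medians were 0.01 and 0.005. RPS27A, which encodes ubiquitin fused to a ribosomal protein, had 0.42 (adjusted p = 0.196, edgeR) and 0.45 (adjusted p = 0.144, edgeR). None of 6 genes for ubiquitin and its activating enzymes was called.

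Complexes of related build were read in the same way. The COP9 signalosome, which resembles the lid, had medians of 0.07 and 0.10 over 10 genes, and its smallest subunit COPS9 had 0.89 and 0.91, followed by COPS6 with 0.23 and 0.26. The translation factor eIF3 had medians of 0.03 and 0.08 over 13 genes, with EIF3K at 0.53 and 0.61, EIF3A at -0.27 with UXS1 siRNA and EIF3G at 0.24 with MRPL42 siRNA. The CCT chaperonin had -0.07 and -0.06 over 8 genes, with TCP1 at -0.15 in both, and 11 heat shock genes had -0.10 and -0.15, with HSPE1 at 0.41 and 0.42 (adjusted p = 0.145 and 0.132, edgeR) and HSPB1 at 0.47 and 0.58. Without control library c the sign of the heat shock medians turned, to 0.06 and 0.004. None of these genes was called.

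The size of the values went with transcript length, the same length that the TPM use. The 46 proteasome genes had a median length of 1554 bases, the constitutive beta subunits 964, the ribosomal protein genes 835 and all genes tested 2993. Below 1000 bases, 10 proteasome genes had a median log2 fold change of 0.29 with UXS1 siRNA and 0.33 with MRPL42 siRNA. Beside them stood 0.41 and 0.43 over 733 genes of that length. The 10 include PSME3 and PSMG4, whose longest coding transcripts have 3366 and 4603 bases. Between 1000 and 1500 bases, 10 proteasome genes had 0.22 and 0.22, beside 0.17 and 0.19 over 1103 genes. Between 1500 and 2000 bases, 11 had 0.06 and 0.05, beside 0.07 and 0.09 over 1529 genes. Between 3000 and 4000 bases, 6 had -0.04 and -0.01, beside -0.04 and -0.05 over 2078 genes. In the band from 2000 to 3000 bases, 6 had 0.10 and 0.14, beside 0.005 and 0.001 over 2937 genes, and all 6 were above the median of their band in both comparisons. From 4000 bases on, 3 had -0.02 and -0.08, beside -0.08 and -0.10 over 4193 genes. Of the 10 shortest, 3 were above the median of their band in both comparisons, and of the 10 next in length, 7 were.

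**Figure D4:**
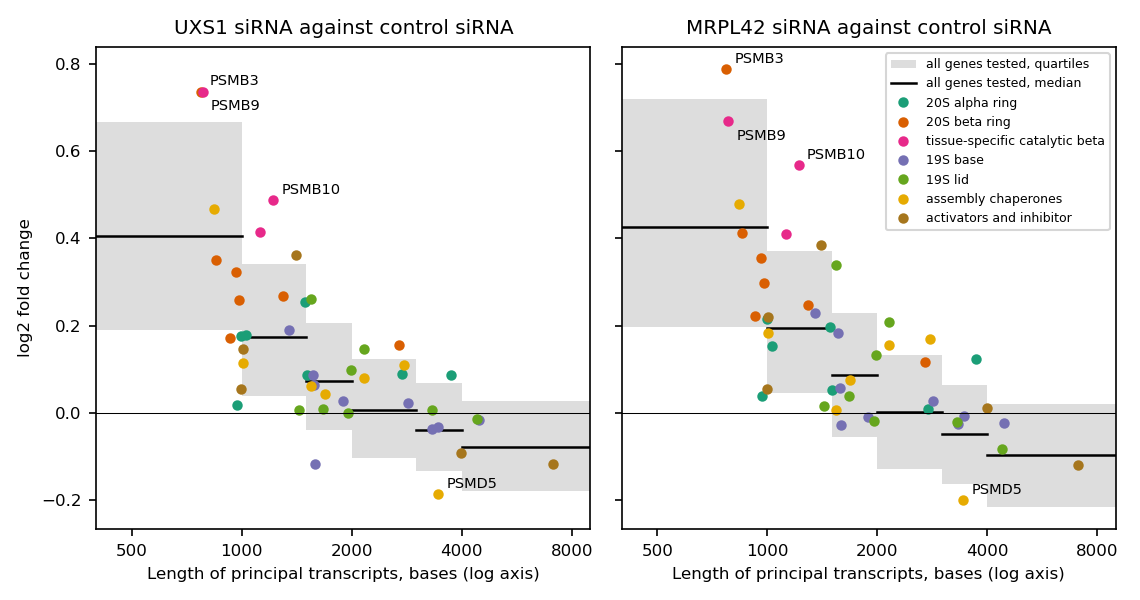
Log2 fold change against transcript length (log axis) for UXS1 siRNA (left panel) and MRPL42 siRNA (right panel) against control siRNA. Coloured points are the 46 proteasome genes by class, and the black lines and grey boxes are the medians and quartiles of all genes tested in 6 bands of length. In the shortest band the median of all genes is 0.41 (left) and 0.43 (right), and PSMB3 and PSMB9 are above it in both panels.

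Offsets for length, from a smooth curve in each library over all genes tested, brought the constitutive beta subunits to medians of 0.004 with UXS1 siRNA and 0.02 with MRPL42 siRNA, the whole set to -0.005 and 0.01, and the ribosomal protein genes to 0.18 and 0.19. PSMB4, PSMB6 and PSMB7 came to between -0.05 and 0.02. The largest positive values left were those of PSMB3, 0.31 and 0.31, PSMB9, 0.31 and 0.21, PSMB10, 0.26 and 0.32, and PSME2, 0.20 and 0.21, with PSMB8 at 0.16 and 0.15, PSMD8 at 0.13 and 0.20 and PSMA5 at 0.13 and 0.18. Negative values of like size were left for PSMA3, -0.30 and -0.28, and for PSME3, -0.25 and -0.24. Others were PSMC4, -0.24 and -0.15, and PSMB1, -0.17 and -0.13. For PSME3 the offsets used 998 bases, while its longest coding transcript has 3366 bases. Offsets with that length were not computed. With these offsets 0 of 46 genes were called in either comparison, beside 0.0711% of all genes with UXS1 siRNA and 0.0158% with MRPL42 siRNA. The part of length in the result was not tested beyond this.

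The libraries fell in a like order for the beta ring and the ribosome. Relative to each gene's mean over the 9 libraries, the constitutive beta subunits averaged 0.13, 0.15 and 0.04 on the log2 scale in the UXS1 siRNA libraries a, b and c and 0.32, -0.12 and 0.15 in the MRPL42 siRNA libraries, against -0.19, -0.20 and -0.27 in the control libraries. The ribosomal protein genes averaged 0.21, 0.28 and 0.07 in the UXS1 siRNA libraries and 0.54, -0.21 and 0.30 in the MRPL42 siRNA libraries, against -0.32, -0.36 and -0.51 in the control libraries. Both were highest in MRPL42 siRNA library a and lowest in control library c, and in both MRPL42 siRNA library b was the lowest of the 6 libraries with a targeting siRNA. The base subunits averaged between -0.06 and 0.05 in all libraries. The slope of relative level on length over all genes tested, in log2 units per doubling of length, was -0.03, -0.07 and -0.006 in the UXS1 siRNA libraries and -0.10, 0.04 and -0.08 in the MRPL42 siRNA libraries, against 0.05, 0.07 and 0.12 in the control libraries, so it ordered the libraries much as the beta ring did.

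**Figure D5:**
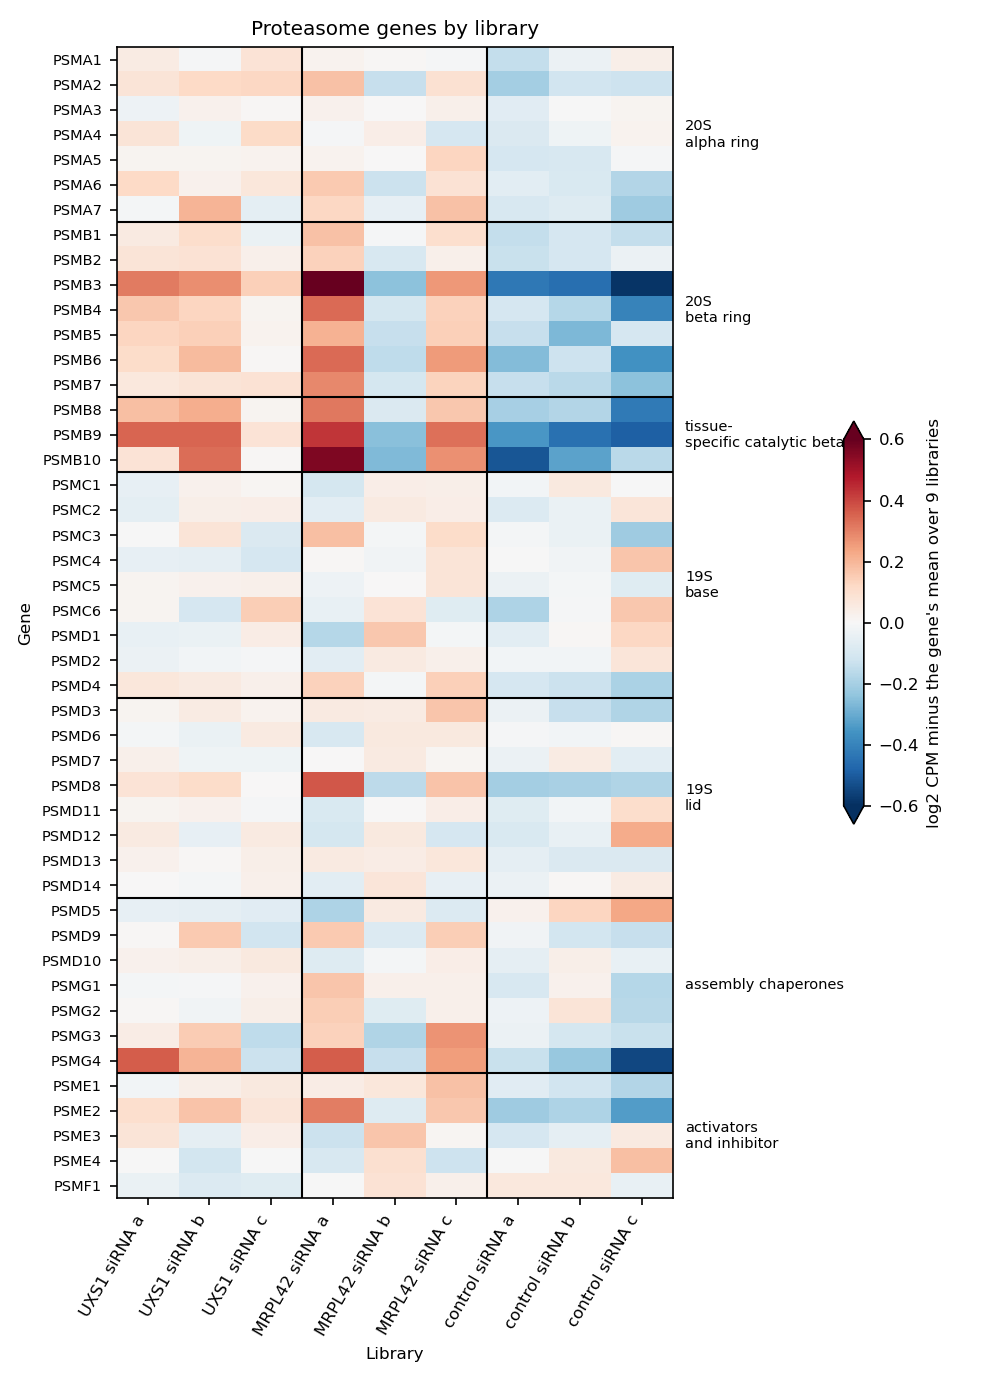
Level of each proteasome gene in each library as log2 CPM minus the gene's mean over 9 libraries, with UXS1 siRNA left, MRPL42 siRNA in the middle and control siRNA right. Red is above and blue below the mean of the gene, the scale ends at 0.6 on either side, and horizontal lines part the classes. The beta ring and the immunoproteasome subunits are blue in all control libraries and in MRPL42 siRNA library b, apart from PSMB1, which is near its mean there, while the base stays pale.

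Calls on these genes turned on single libraries and tools. By chi-squared per gene, MRPL42 siRNA library b was nearer to control libraries a and b than to its own group, as given above. Without MRPL42 siRNA library b, 12 of 46 proteasome genes were called with MRPL42 siRNA, all of them higher, beside 6.33% of all genes called in either direction: PSMA2, all constitutive beta subunits other than PSMB1 and PSMB2, the 3 immunoproteasome subunits, PSMD4, PSMD8 and PSME2. The same fit called PSMB3, PSMB9 and PSME2 higher with UXS1 siRNA, beside 2.78% of all genes. DESeq2 on all libraries called those 3 with UXS1 siRNA, beside 3.97%, and PSMB3, PSMB6, PSMB9, PSMD3, PSMD4 and PSME2 with MRPL42 siRNA, beside 5.80%. With only the 2 groups compared in the fit, PSMB3 and PSMB9 were called with UXS1 siRNA, beside 2.02%, and none of 46 with MRPL42 siRNA, beside 0.0%. Without control library c, 0 of 46 were called in either comparison, beside 1.58% of all genes with UXS1 siRNA and 1.33% with MRPL42 siRNA. Without that library the constitutive beta subunits had medians of 0.23 with UXS1 siRNA and 0.27 with MRPL42 siRNA, the immunoproteasome subunits 0.57 and 0.63, the base 0.01 and 0.03, and the ribosomal protein genes 0.51 and 0.58. Without MRPL42 siRNA library b, the values with MRPL42 siRNA were 0.40 for the constitutive beta subunits, 0.77 for the immunoproteasome subunits and -0.008 for the base, beside 0.84 for the ribosomal protein genes.

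Between UXS1 siRNA and MRPL42 siRNA the values were small. Log2 fold changes of UXS1 siRNA over MRPL42 siRNA ran from -0.10 to 0.08, 17 of 46 were above 0, beside 48.6% of all genes tested, and the median was -0.02. At an unadjusted p below 0.05, 0 of 46 were higher, beside 1.26%, and 0 were lower, beside 0.458%. PSMC4, PSMD13, PSMF1 and PSMG1 had all UXS1 siRNA libraries below all MRPL42 siRNA libraries, beside 4.3% of all genes, and no gene had them all above, beside 5.79%. The 95% confidence intervals were narrow for some genes, such as -0.15 to 0.08 for PSMD13, -0.14 to 0.10 for PSMA3 and -0.12 to 0.13 for PSMC5. They were widest for PSMB10, at -0.52 to 0.36, so the size of a difference that these libraries could show differed by gene.

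The median SD within groups was 0.09 on the log2 CPM scale over the 46 genes, beside 0.12 over the 9293 tested genes of within their range of level, 9.38 to 394 CPM. The proteasome genes stood higher in that range, with a median of 119 CPM, beside 44.4 CPM. PSMA3 of the alpha ring varied least over the 9 libraries, with a coefficient of variation of 2.19% in CPM, and PSMB3 most, with 31.0%.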

How the data were processed

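Per the submitters' processing notes, the tools were fastp, HISAT2, Bowtie2 and edgeR, with build hg38. Their order, the counting program and the annotation were not stated: not given in the sources used here. Estimated counts per gene and library were deposited by the authors, not normalised. A further 9 columns of per-library values were not used. Column names gave each library's group, though the UXS1 siRNA columns spell that name with letters exchanged. Estimated counts were rounded, since the design had been written for counts. The 9 libraries were fitted together, with a mean for each group, after filterByExpr and TMM scaling (edgeR 4.0.16, R 4.3.3; quasi-likelihood test, two-sided). limma 3.58.1 and DESeq2 1.42.0 served as alternatives. TPM were computed here from the unrounded counts and the median length of a gene's principal transcripts over 20128 genes found in GENCODE 29, of 20379 listed, and were described only. Length offsets came from a lowess curve per library with a span of 0.3. The scripts were tested on simulated data. Without molecular identifiers, PCR copies are counted as reads, and counts and floors cover counting error only. The members, lists, motifs and alternatives were chosen with earlier results of these data known. Named genes were the catalytic and immunoproteasome subunits, the largest and smallest value of each class, and per outside list those called or the 2 with the smallest p; others named were chosen after their values were seen. A gene that this rule names is not reported here.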

Additional observations from a re-analysis of the deposited data

How the results depend on the processing

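RLE and upper quartile scaling, no filter on low counts and limma-voom left 0 proteasome genes called in every comparison. They left every class median within 1 SD of its value. With RLE scaling the lid median in UXS1 siRNA against control siRNA turned sign, from 0.007 to -0.001. The count called in UXS1 siRNA was 3 with DESeq2 and 2 with those 2 groups only, and ran from 0 to 3 over leaving out each library. In MRPL42 siRNA it was 6 with DESeq2 and ran from 0 to 12 over leaving out each library; the highest counts came without MRPL42 siRNA library b. With length offsets the class medians in UXS1 siRNA against control siRNA were -0.005 (all), -0.051 (alpha), 0.004 (beta), 0.262 (immunoproteasome), -0.009 (base), 0.038 (lid), -0.054 (chaperones), -0.045 (activators) and 0.183 (ribosomal). In MRPL42 siRNA against control siRNA they were 0.014, -0.091, 0.017, 0.212, 0.035, 0.001, -0.030, -0.013 and 0.192 in the same order. With the offsets and without control library c, the UXS1 siRNA medians that moved were 0.014 (all), 0.023 (alpha), -0.036 (beta), 0.068 (lid), -0.048 (chaperones), -0.093 (activators) and 0.172 (ribosomal). Those of MRPL42 siRNA were 0.024, -0.016, 0.003, 0.236 (immunoproteasome), 0.032 (base), 0.066 (lid), -0.066, 0.003 and 0.191.

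Over leaving out each library, the medians that moved ranged as follows. The base had -0.032 to 0.031 in UXS1 siRNA and -0.023 to 0.049 in MRPL42 siRNA against control siRNA, and -0.048 to 0.004 in UXS1 siRNA against MRPL42 siRNA. The lid had -0.004 to 0.059, 0.007 to 0.054 and -0.030 to 0.001 in these comparisons. The activators had 0.020 to 0.086, -0.014 to 0.120 and -0.078 to -0.017. The alpha ring had 0.081 to 0.146 in MRPL42 siRNA against control siRNA and -0.030 to 0.036 in UXS1 siRNA against MRPL42 siRNA. The chaperones had 0.078 to 0.179 in MRPL42 siRNA against control siRNA, and all genes -0.068 to -0.010 in UXS1 siRNA against MRPL42 siRNA.

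The sign turned for several single genes, none of them called. With length offsets PSMA3 had -0.303, PSMA7 -0.131, PSMB6 -0.029, PSMB7 -0.053 and PSMD12 0.043 in UXS1 siRNA, and PSMA3 -0.284, PSMA7 -0.099 and PSMB7 -0.034 in MRPL42 siRNA. Without control library c as well, PSMA3 had -0.238, PSMA7 -0.128, PSMB6 -0.036, PSMB7 -0.041 and PSMD12 0.128 in UXS1 siRNA, and PSMA3 -0.221, PSMA7 -0.096, PSMB7 -0.020, PSMD12 0.072 and PSME4 0.003 in MRPL42 siRNA. Over leaving out each library PSMA3 had -0.007 to 0.033 and PSMD12 -0.075 to 0.075 in UXS1 siRNA, and PSMA4 had -0.024 to 0.047, PSMC4 -0.062 to 0.025 and PSMD12 -0.144 to 0.013 in MRPL42 siRNA. The length offsets use all genes, the ribosomal ones included; otherwise the cause was not tested. No paired analysis was possible because the columns carry letters that no label ties to the repeat numbers, so the fit with the replicate as a block was not run.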
